A study of Mus musculus with 8 samples.

Results

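Immunoglobulin constant genes and the joining chain were measured in mouse blood mononuclear cells after 1 month of oral fucoidan or saline. The 10 genes are the heavy chain genes Ighm, Ighd, Ighg2b, Ighg2c, Ighg3 and Igha, the light chain genes Igkc, Iglc1 and Iglc2, and Jchain. They were found by gene name among the 56748 genes of the count table. All 10 were present, and all 10 were among the 14723 genes that passed the filter on low counts. Every animal was a male wild-type C57BL/6J mouse of 8 weeks on a standard basal diet. The 5 control mice received saline by daily gavage, and the 3 treated mice received fucoidan, a sulphated polysaccharide of brown seaweed, here from Undaria pinnatifida, at 200 mg/kg/day. Blood was taken by cardiac puncture, mononuclear cells were separated on a density gradient, and poly(A) RNA was sequenced.

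An antibody is built from heavy chains paired with light chains of the kappa or lambda type. Each chain joins a variable region, which binds antigen, to a constant region, which sets the class. A naive B cell makes IgM and IgD from 1 long transcript by alternative RNA processing, and shows both on its surface. After activation a B cell can replace these classes with IgG, IgA or IgE by cutting out the DNA in between, and a plasma cell secretes large amounts of 1 class. The joining chain links IgM or IgA units into larger secreted forms and is made mainly by antibody-secreting cells. Reads were counted here per constant gene, so the values describe RNA of classes and chain types, with all transcript forms of a gene pooled. They give neither protein nor numbers of switched cells, and say nothing of the antigens bound.

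Total counts ran from 13061703 to 16334932 per library. The 10 genes took 0.571 to 0.735% of all counts after saline and 0.246 to 0.430% after fucoidan. B cell transcripts were present in every library: the 16 B cell markers summed to 5572 to 7096 CPM (read counts relative to library size, scaled by TMM factors) after saline and 3379 to 4855 CPM after fucoidan. Erythroid and platelet transcripts were higher after fucoidan, with haemoglobin at 3.51 to 8.48% of counts against 13.5 to 24.1%. All 9 erythroid, all 7 platelet and all 8 natural killer cell genes tested rose, as did 3 of 9 T cell genes, and none of 6 monocyte or 5 neutrophil genes was called. Red cell RNA in a library takes reads from all other transcripts. With haemoglobin genes left out of the library totals and scaling, every one of the 10 genes kept its direction and its side of the threshold, and Ighd had a log2 fold change of -1.05. The part of the other erythroid and platelet RNA in the results below was not tested. In such bulk RNA, fewer cells of a type and less RNA per cell cannot be told apart.

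Of the 10 genes, 3 fell after fucoidan: Ighd, Ighg3 and Iglc2. None rose, and 7 were not called (edgeR quasi-likelihood test, Benjamini-Hochberg adjusted p under 0.05 over all genes tested). Over all genes tested, 4.65% were called lower and 9.11% higher, 13.8% in either direction. All 10 log2 fold changes (fucoidan over saline) were below 0, as were 55.1% of all tested genes, and the median was -0.50 against -0.04 over all genes tested. The libraries of the groups did not overlap for 4 of the genes, Ighd, Ighg3, Igkc and Iglc2, all lower after fucoidan, a pattern seen in that direction for 11.0% of all genes. In the fit that pairs libraries by replicate number (the blocked fit), 439 genes were called lower in place of 684, and 2 of the 10. Saline replicates 4 and 5 have no fucoidan library of the same number, so that fit compares only 3 saline with 3 fucoidan libraries. The part of this smaller number of libraries in the lost calls was not tested. The number of the 10 called lower was 4 with upper-quartile scaling or limma-voom, and 5 with DESeq2, and Ighd was called in every setting run. In simulated data, 17.3% of DESeq2 calls were false, against 7.33% with edgeR. Upper-quartile scaling also changed the split over all genes, to 1241 higher and 989 lower from 1341 and 684.

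**Figure D1:**
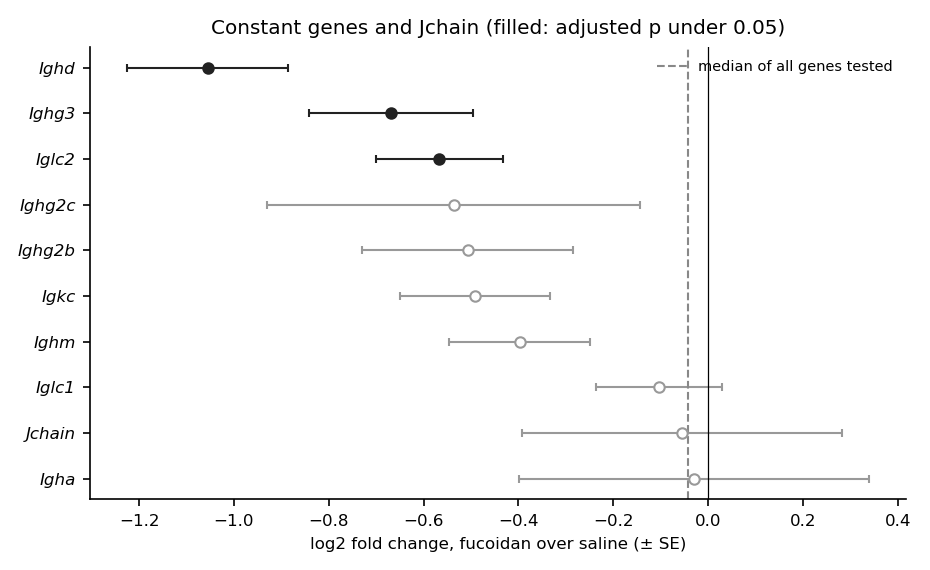
Log2 fold change (fucoidan over saline, with its standard error) of each of the 10 genes from the fit over all genes tested. Filled points have an edgeR adjusted p under 0.05 and the dashed line is the median of all genes tested. Ighd lies farthest below 0 at -1.06, and Igha and Jchain lie near 0 with wide errors.

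Before the classes are taken in turn, the sequences of the lambda constant genes are shown, because Iglc1 and Iglc2 gave different values and Iglc2 has a near copy, Iglc3. Each line gives 90 bases of the constant exon, 5′ to 3′ on the coding strand, from GENCODE M21 transcripts on GRCm38, where all 3 genes lie on the minus strand of chromosome 16. The stretch is the ungapped one in which Iglc1 and Iglc2 differ most. Capitals in the Iglc2 line mark bases at which Iglc1 differs, and capitals in the other lines mark bases that differ from Iglc2.
Iglc2: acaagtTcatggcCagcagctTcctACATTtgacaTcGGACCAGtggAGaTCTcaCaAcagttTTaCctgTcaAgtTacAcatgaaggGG
Iglc1: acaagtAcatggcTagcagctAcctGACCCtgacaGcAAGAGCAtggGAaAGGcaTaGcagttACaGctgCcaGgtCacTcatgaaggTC
Iglc3: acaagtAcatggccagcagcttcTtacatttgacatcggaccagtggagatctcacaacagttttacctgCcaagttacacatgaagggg
The stretches lie at chr16:19198577-19198666 for Iglc2, chr16:19061793-19061882 for Iglc1 and chr16:19065406-19065495 for Iglc3. Iglc1 differs from Iglc2 at 32 of these 90 bases, and Iglc3 differs from it at 3. Over 312 aligned bases of the whole exon, Iglc1 was 73.4% identical to Iglc2 and 74.0% to Iglc3, whereas Iglc2 and Iglc3 were 96.5% identical with 11 bases differing. No run of 150 bases, the read length, was shared by any of the constant genes. At 75 bases, 0.931% of the windows of Iglc2 and 1.32% of those of Iglc3 were shared. The same held for 0.768% of the windows of Ighg2b, 0.574% of those of Ighg3 and 0.48% of those of Ighg2c. Reads of Iglc1 can therefore be told from those of Iglc2 over this stretch, and the split between Iglc2 and Iglc3 is less certain.

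Ordered by level per length, the kappa constant gene led and IgM came next. In mean CPM per kilobase of the gene length in the table, the saline levels were 2755 for Igkc (2304 to 3172 over libraries), 1563 for Ighm (1308 to 1749), 576 for Ighd (451 to 697), 274 for Iglc2 (232 to 332), 184 for Iglc1 (154 to 223) and 63.8 for Igha (45.9 to 70.7). Lower still were Jchain at 12.8 (9.76 to 15.5), Ighg2b at 7.53 (5.78 to 9.13), Ighg2c at 5.82 (3.64 to 9.07) and Ighg3 at 2.85 (2.58 to 3.31). Among neighbours in this order, the ranges over saline libraries overlapped only between Ighg2b and Ighg2c. After fucoidan the order of the means was the same, but Iglc2 at 185 (161 to 211) and Iglc1 at 171 (147 to 190) now overlapped. So did Jchain (4.37 to 17.9) and Ighg2b (3.49 to 7.41), and Ighg2c (1.66 to 6.91) and Ighg3 (1.67 to 2.06), while Ighg2b and Ighg2c overlapped as before.

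**Figure D2:**
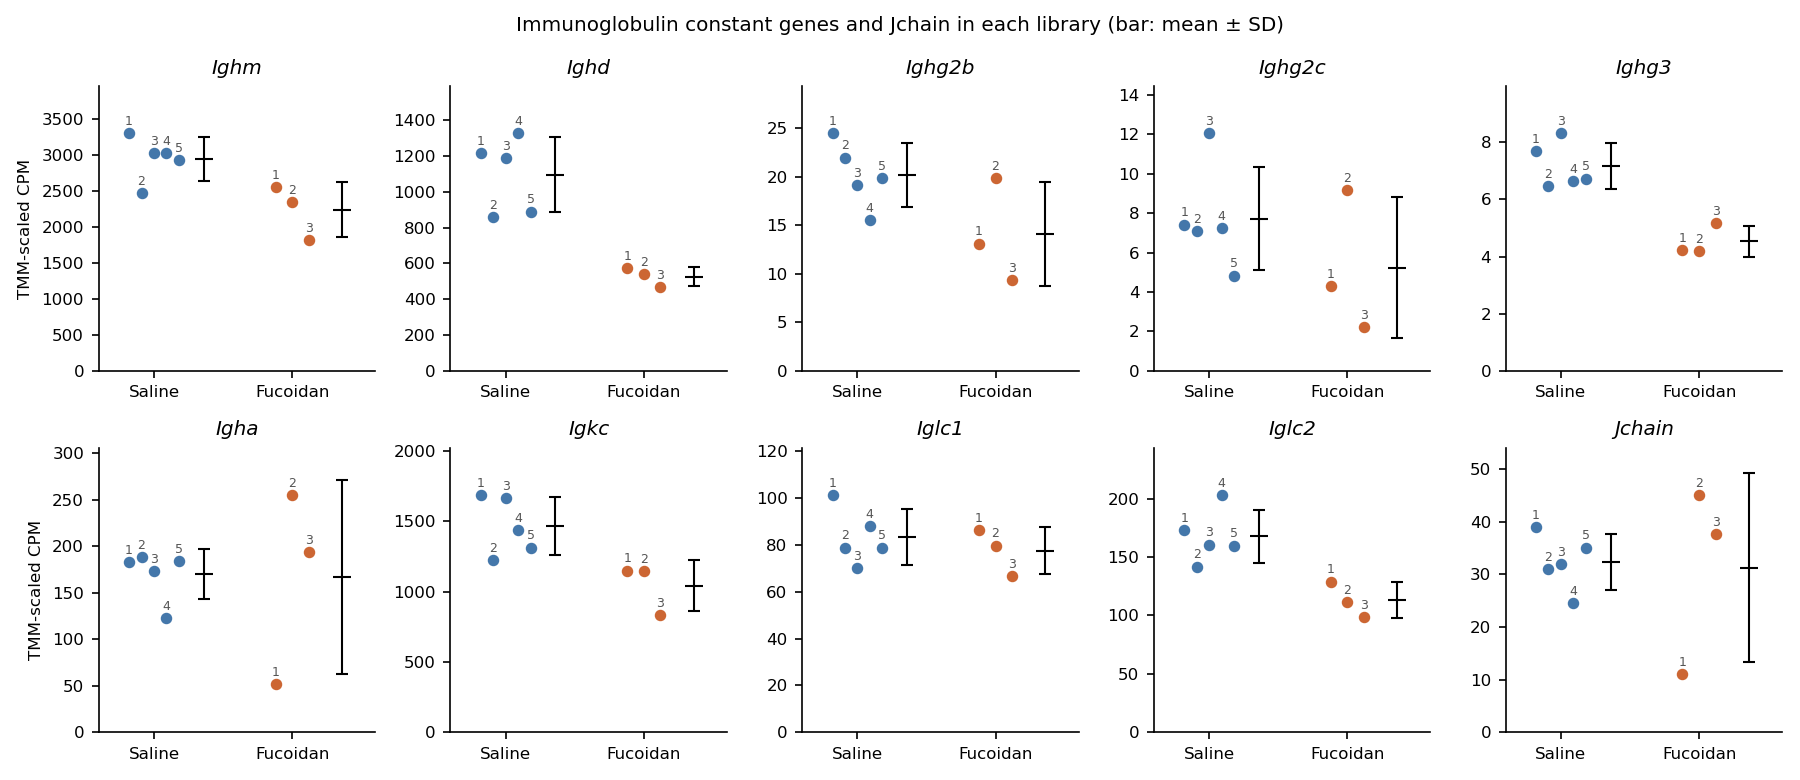
TMM-scaled CPM of the 10 genes in each of the 8 libraries, numbered by replicate, on linear axes from 0 that differ between genes, with the mean and SD of each group as bars. Ighd, Ighg3, Igkc and Iglc2 separate the groups, and Igha and Jchain have their lowest value in the same fucoidan library, replicate 1.

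Ighm encodes the constant region of IgM, the first class a B cell makes, and lies on the minus strand of chromosome 12 at 113382178 to 113386350 (GRCm39, ENSMUSG00000076617). Its level was 3298, 2466, 3026, 3022 and 2927 CPM in saline replicates 1 to 5, and 2554, 2345 and 1817 CPM in fucoidan replicates 1 to 3. Every saline library but replicate 2 lay above every fucoidan library, so the groups overlapped. The means were 2948 ± 303 CPM (SD, n = 5) and 2239 ± 380 CPM (SD, n = 3), with a log2 fold change of -0.40 ± 0.15 (SE) that was not called (edgeR adjusted p = 0.105). The DESeq2 alternative called it (adjusted p = 0.0457), and no other setting run did. Without fucoidan replicate 3 the log2 fold change was -0.26.

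Ighd, the constant gene of IgD, lies just downstream of Ighm at 113370224 to 113379944 (ENSMUSG00000104213). It was measured at 1216, 857, 1186, 1325 and 889 CPM after saline and at 574, 540 and 467 CPM after fucoidan. The highest fucoidan library was below the lowest saline library, and the 3 fucoidan values lay close together. Mean levels were 1095 ± 209 CPM (SD, n = 5) and 527 ± 54.8 CPM (SD, n = 3), a ratio of 0.481. Ighd fell by 1.06 ± 0.17 (SE) on the log2 scale (edgeR adjusted p = 0.00396). Leaving out each library in turn kept the log2 fold change between -1.13 and -0.97, and over all alternatives the adjusted p ran from 1.77e-07 to 0.0187.

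The ratio of Ighd to Ighm within a library does not depend on library scaling or on red cell RNA. Per kilobase, the ratio of Ighd to Ighm was 0.366, 0.345, 0.389, 0.435 and 0.302 after saline, and 0.223, 0.229 and 0.255 after fucoidan. All 3 fucoidan ratios were below all 5 saline ratios, with means of 0.367 ± 0.0497 (SD, n = 5) and 0.235 ± 0.0170 (SD, n = 3). On the log2 scale the difference was -0.63 (exact two-sided permutation p = 0.0357, the smallest that the 56 arrangements allow, and 0.134 after Benjamini-Hochberg adjustment over a family of 15 shares and ratios). The difference therefore did not pass the threshold after adjustment, which with 5 against 3 libraries a value could have done only if most of the 15 had reached the smallest p. The groups stayed apart when any 1 of the 8 libraries was left out.

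Seen as shares of all heavy chain constant genes per kilobase, IgM made up 70.5, 70.8, 69.3, 67.9 and 73.7% after saline and 80.3, 75.8 and 74.7% after fucoidan. IgD made up 25.8, 24.4, 27.0, 29.5 and 22.2% after saline and 17.9, 17.3 and 19.0% after fucoidan. The fucoidan libraries were above every saline library for IgM and below every one for IgD. Mean IgM was 70.5 ± 2.17% (SD, n = 5) against 76.9 ± 2.99% (SD, n = 3), and mean IgD was 25.8 ± 2.73% against 18.1 ± 0.871%. For both the exact two-sided permutation p was 0.0357, with an adjusted p of 0.134. The shares of a library sum to a whole, so these are not independent results, and both depend on the ratio of Ighd to Ighm. They also depend on the IgA share, which was 1.15, 5.83 and 5.63% in fucoidan replicates 1 to 3. Both separations were kept without any 1 library.

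**Figure D3:**
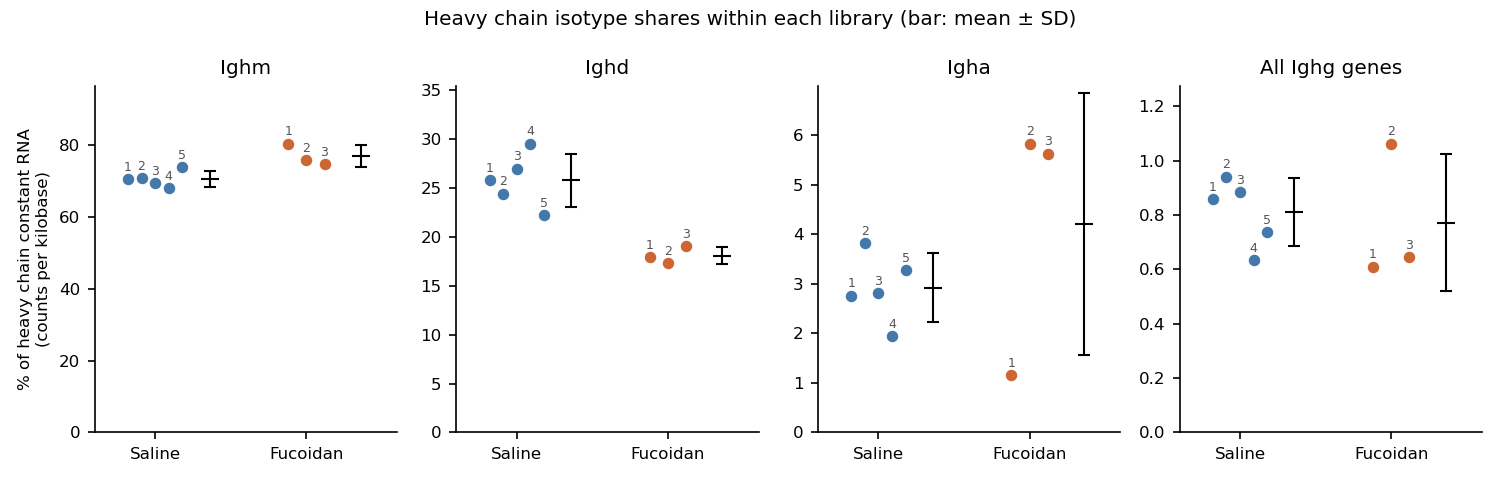
Percent of heavy chain constant gene counts per kilobase taken by IgM, IgD, IgA and the summed IgG genes in each library (points, numbered by replicate), with the mean and SD of each group as bars. The 3 fucoidan libraries lie at 17.3 to 19.0% IgD, below the saline libraries at 22.2 to 29.5%.

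Levels were also read against the summed B cell markers of the same library. Relative to them, Ighm was higher after fucoidan, by 0.20 in log2, with means of -1.11 ± 0.099 (SD, n = 5) and -0.91 ± 0.016 (SD, n = 3), and Ighd was lower by 0.43, with means of -2.56 ± 0.17 and -2.99 ± 0.12. The libraries did not overlap for either gene, nor for Iglc1, which was 0.51 higher. All 3 differences had an exact two-sided permutation p of 0.0357, and none passed after adjustment over the 10 genes (adjusted p = 0.119). For Igkc the difference was 0.11 with overlapping libraries (exact permutation p = 0.286, adjusted 0.714), and for the other 6 genes the adjusted p was 0.913 to 0.929. The marker list holds genes that themselves differ in level between B cell subsets, such as Fcer2a and Cr2.

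The IgG genes were low, and 1 of them was called. Ighg3, the gene of the IgG3 subclass, lies at 113319844 to 113324852 on chromosome 12 (ENSMUSG00000076615) and gave 7.69, 6.47, 8.31, 6.65 and 6.72 CPM after saline against 4.22, 4.20 and 5.17 CPM after fucoidan. Those values came from 115 to 136 counts and from 47 to 61 counts per library, and the groups did not overlap. Mean levels were 7.17 ± 0.796 CPM in the 5 saline mice and 4.53 ± 0.555 CPM in the 3 fucoidan mice (mean ± SD). Ighg3 fell by 0.67 ± 0.17 (SE) on the log2 scale (edgeR adjusted p = 0.0269). The call was lost in the blocked fit (adjusted p = 0.0608), with no filter on low counts (0.0518), without saline replicate 3 (0.0589) and without fucoidan replicates 1, 2 or 3 (0.102, 0.102 and 0.0503).

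Ighg2b, the IgG2b gene at 113266585 to 113271553 (ENSMUSG00000076613), was measured at 24.4, 22.0, 19.1, 15.5 and 19.8 CPM after saline and at 13.1, 19.8 and 9.35 CPM after fucoidan. Fucoidan replicate 2 lay among the saline libraries and the others below them, and the log2 fold change of -0.51 ± 0.22 (SE) was not called (edgeR adjusted p = 0.165). Without that library it was -0.83 and was called (adjusted p = 0.0327), and without fucoidan replicate 3 it was -0.28 and was not. Ighg2c, the C57BL/6 gene of the IgG2c subclass at 113248945 to 113252552 (ENSMUSG00000076612), gave 7.41, 7.09, 12.0, 7.22 and 4.83 CPM after saline and 4.29, 9.16 and 2.2 CPM after fucoidan. Again fucoidan replicate 2 was the highest of its group and the groups overlapped, with a log2 fold change of -0.54 ± 0.39 (SE) that was not called (edgeR adjusted p = 0.412). It was -1.21 without fucoidan replicate 2 and -0.19 without fucoidan replicate 3, and called in neither case.

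Outside the 10 genes, Ighg1 ranged from 40 to 162 counts after saline and from 18 to 49 after fucoidan, with a log2 fold change of -0.78 ± 0.48 (SE) that was not called (edgeR adjusted p = 0.326) and was -0.34 without saline replicate 1. Ighe, the IgE gene, had 3, 0, 0, 1 and 1 counts after saline and 0 in each fucoidan library. There 3 counts, taken as an approximate upper limit from counting error for a count of 0, come to 0.208, 0.229 and 0.330 CPM. It was not tested. Summed over its 4 genes, IgG took 0.811 ± 0.124% of heavy chain counts per kilobase after saline (SD, n = 5) and 0.772 ± 0.252% after fucoidan (SD, n = 3), with overlapping libraries (exact two-sided permutation p = 0.821, adjusted 0.964). The 4 separate IgG shares had adjusted p from 0.952 to 0.964.

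Igha and Jchain varied far more within the fucoidan group than within the saline group. Igha, the IgA gene at 113218450 to 113223856 on chromosome 12 (ENSMUSG00000095079), was at 183, 189, 173, 123 and 184 CPM after saline and at 51.8, 255 and 194 CPM after fucoidan. Fucoidan replicate 1 was the lowest of all 8 libraries, whereas fucoidan replicates 2 and 3 were the highest. The highest value was 1.54 times the lowest among saline libraries and 4.92 times among fucoidan libraries, with coefficients of variation of 16.0% and 62.5%. The log2 fold change was -0.03 ± 0.37 (SE; edgeR adjusted p = 0.971). Without fucoidan replicate 1 it was 0.40 and still not called (adjusted p = 0.207).

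Jchain, on the minus strand of chromosome 5 at 88667668 to 88675750 (ENSMUSG00000067149), was at 38.9, 31.0, 31.9, 24.6 and 35.1 CPM after saline and at 11.0, 45.1 and 37.6 CPM after fucoidan. It had the same lowest library, fucoidan replicate 1, and the same highest library, fucoidan replicate 2, as Igha. Its spread was 1.58 times among saline and 4.09 times among fucoidan libraries, and its log2 fold change of -0.06 ± 0.34 (SE) was not called (edgeR adjusted p = 0.939). Without fucoidan replicate 1 it was 0.36 (adjusted p = 0.234). The difference in spread between the groups was not tested.

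Across the 8 libraries, log2 CPM of Igha and Jchain correlated with a Pearson r of 0.986 (exact permutation p = 0.00179, adjusted 0.00268 over 3 pairs of genes) and a Spearman rho of 0.762 (exact permutation p = 0.0368, adjusted 0.0368). Without fucoidan replicate 1 and saline replicate 4, the libraries farthest from the median Igha level, r was 0.795 over 6 libraries (exact permutation p = 0.100), so the relation at its full strength rests on those libraries. With the group means removed from all 8 libraries, r was again 0.986. For the other pairs, Ighm with Igkc and Ighm with Ighd, no pooled r is given, because the groups separate in level of Igkc and Ighd. With the group means removed, r was 0.905 for Ighm with Igkc and 0.727 for Ighm with Ighd, neither of them tested. The ratio of Jchain to Igha per kilobase, computed after the values were seen and not tested, was -2.31 ± 0.14 in log2 after saline (SD, n = 5) and -2.28 ± 0.13 after fucoidan (SD, n = 3). In all 8 libraries it lay between -2.52 and -2.15, while Igha itself differed 4.92 times among the fucoidan libraries.

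As a share of heavy chain counts per kilobase, IgA took 2.76, 3.83, 2.81, 1.95 and 3.28% after saline and 1.15, 5.83 and 5.63% after fucoidan. The means of 2.92 ± 0.696% (SD, n = 5) and 4.20 ± 2.64% (SD, n = 3) differed by less than the spread of the fucoidan libraries (exact two-sided permutation p = 0.286, adjusted 0.857). When fucoidan replicate 1 was left out, both other fucoidan libraries lay above every saline library, a difference of 2.80 percentage points for which 2 libraries against 5 give no test that can reach the threshold. The log2 ratio of Jchain to Ighm differed by 0.14 with overlapping groups (exact permutation p = 0.929, adjusted 0.964). Single libraries set its sign and size, since it was 0.87 without fucoidan replicate 1 and -0.26 without fucoidan replicate 3.

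**Figure D4:**
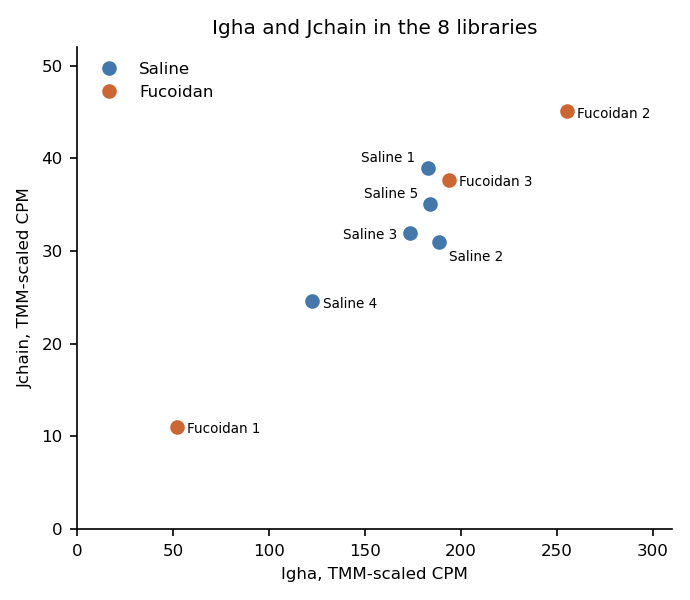
Jchain against Igha level in each library, both in TMM-scaled CPM on linear axes. Fucoidan replicate 1 lies at 51.8 CPM of Igha and 11.0 CPM of Jchain, apart from the other 7 libraries.

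Genes of plasma cells and antibody secretion did not move in 1 direction. Of 18 tested, 3 rose and 2 fell, with a median log2 fold change of 0.18. Over all genes tested, the shares called were 9.11% higher and 4.65% lower. The rises were Tent5c, a poly(A) polymerase of plasma cells that red cell precursors also express (2.25 in log2), and Edem1 (0.67) and Hsp90b1 (0.62), both of protein quality control in the endoplasmic reticulum. Tent5c had a mean of 721 CPM after saline and 3436 CPM after fucoidan. Erythroid genes were higher in the same group, and the part of erythroid RNA in this rise was not tested. The falls were Sdc1, which encodes the plasma cell surface protein CD138 (-0.77, edgeR adjusted p = 0.0153), and Mzb1, a chaperone of IgM assembly that was named after its values were seen (-0.92, adjusted p = 0.0297). In the blocked fit Mzb1 was not called (adjusted p = 0.108). Neither fall was called without fucoidan replicate 1 or without fucoidan replicate 3, Hsp90b1 was not called without fucoidan replicate 1 (0.0566), and 6 genes rose with limma-voom or without saline replicate 2.

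Kappa was the main light chain in every library. Igkc, the kappa constant gene on the plus strand of chromosome 6 at 70703419 to 70703950 (ENSMUSG00000076609), was at 1687, 1226, 1663, 1440 and 1312 CPM after saline and at 1149, 1148 and 832 CPM after fucoidan. Every fucoidan library was below every saline library. The log2 fold change of -0.49 ± 0.16 (SE) missed the threshold (edgeR adjusted p = 0.0631). It passed with upper-quartile scaling (adjusted p = 0.0403), DESeq2 (0.0227), limma-voom (0.0399), no filter on low counts (0.0203) and without saline replicate 2 (0.0451).

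Iglc2, a lambda constant gene on the minus strand of chromosome 16 at 19017146 to 19019101 (GRCm39, ENSMUSG00000076937), was at 173, 142, 161, 203 and 160 CPM after saline and at 129, 112 and 98.6 CPM after fucoidan. The groups did not overlap. Its means were 168 ± 22.7 CPM over 5 saline and 113 ± 15.2 CPM over 3 fucoidan libraries (mean ± SD), and Iglc2 fell by 0.57 ± 0.13 (SE) on the log2 scale (edgeR adjusted p = 0.0177). Without fucoidan replicate 2 or 3 the call was lost (adjusted p = 0.0618 and 0.0946). Its near copy Iglc3 had a log2 fold change of -0.61 ± 0.20 (SE) that was not called (edgeR adjusted p = 0.0670). Iglc3 passed with upper-quartile scaling (adjusted p = 0.0462), DESeq2 (0.0377), limma-voom (0.0461) and without saline replicate 2 (0.0168). Iglc4, with at most 22 counts in a library, had a log2 fold change of -0.60 ± 0.75 (SE; edgeR adjusted p = 0.662).

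Iglc1, at 18880368 to 18880821 on the same strand (ENSMUSG00000105906), was at 101, 78.8, 70.0, 87.8 and 78.8 CPM after saline and at 86.2, 79.6 and 66.6 CPM after fucoidan. These ranges overlapped over most of their length, and the log2 fold change of -0.10 ± 0.13 (SE) was not called (edgeR adjusted p = 0.666). The log2 ratio of Iglc1 to Iglc2 per kilobase, computed after the values were seen and not tested, was -0.58 ± 0.20 after saline (SD, n = 5) and -0.11 ± 0.049 after fucoidan (SD, n = 3). All 3 fucoidan libraries had a higher ratio than all 5 saline libraries.

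In shares of the 5 light chain constant genes Igkc, Iglc1, Iglc2, Iglc3 and Iglc4 per kilobase, Iglc1 took 5.74, 6.18, 4.18, 5.67 and 5.72% after saline and 7.10, 6.70 and 7.49% after fucoidan. The fucoidan libraries were again all higher, at a mean of 7.10 ± 0.398% (SD, n = 3) against 5.50 ± 0.762% (SD, n = 5). The exact two-sided permutation p was 0.0357 and the adjusted p 0.134, and the separation was kept without any 1 library. Kappa took 81.8 ± 1.97% after saline and 81.1 ± 1.31% after fucoidan, with overlapping libraries (exact permutation p = 0.679, adjusted 0.964). Iglc2 took 8.19 ± 1.06% and 7.70 ± 0.650%, and Iglc3 took 4.45 ± 0.762% and 4.11 ± 0.273% (exact permutation p = 0.500 and adjusted p = 0.938 for each).

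**Figure D5:**
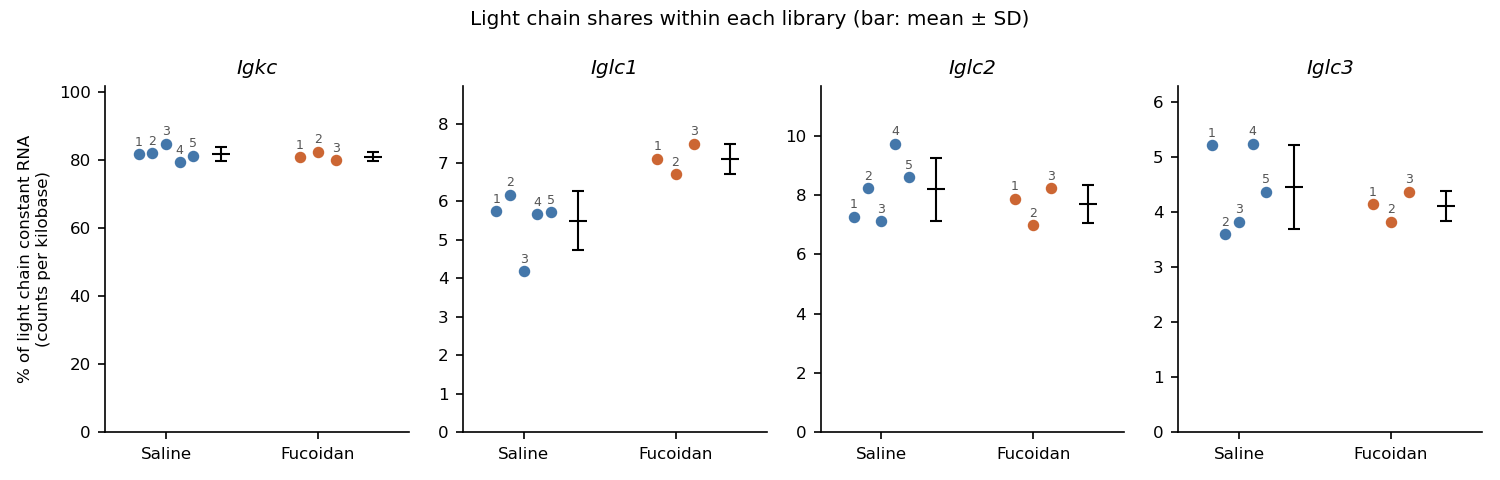
Percent of light chain constant gene counts per kilobase taken by Igkc, Iglc1, Iglc2 and Iglc3 in each library (points, numbered by replicate), with the mean and SD of each group as bars. Iglc1 lies at 6.70 to 7.49% in the 3 fucoidan libraries, above the 4.18 to 6.18% of the saline libraries.

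Other B cell transcripts were lower after fucoidan as well. Of the 16 B cell markers, 12 fell and none rose, with a median log2 fold change of -0.63, and 6 fell without fucoidan replicate 3. The share called lower was 4.65% over all genes tested. Among the 12 were Fcer2a, the low-affinity IgE receptor CD23 of mature B cells (-1.15), and Cd22, an inhibitory receptor (-0.87). Bank1 (-0.89) and Ralgps2 (-0.87), both adaptor or signalling genes of B cells, were also among them. The log2 fold change of Ighd, -1.06, lay between those of Fcer2a and Bank1.

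Partners of membrane immunoglobulin moved in the same direction as Ighd. Of 8 genes of the receptor complex and its first signalling steps, 6 fell and none rose (median -0.47). The share called lower over all genes tested was 4.65%. Cd79a, which carries the signal of membrane IgM and IgD into the cell, fell by 0.71 (edgeR adjusted p = 0.0105), the complement receptor gene Cr2 by 0.61 and the kinase gene Btk by 0.38. In the blocked fit 3 of the 8 fell, and Btk was not among them (adjusted p = 0.105). Only 2 fell when any of saline replicates 3 and 4 and fucoidan replicates 2 and 3 was left out.

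Of 9 genes listed for the processing or transcription of IgM and IgD RNA, 2 fell and none rose (median -0.13). Among all genes tested, 4.65% were called lower and 9.11% higher. Zfp318, which B cells need to splice the long transcript through to Ighd, fell by 0.57 (edgeR adjusted p = 0.0380). Its level was 187, 300, 264, 296 and 247 CPM after saline and 165, 202 and 156 CPM after fucoidan, so that saline replicate 1 lay below fucoidan replicate 2. Pou2f2, which encodes the octamer-binding factor Oct-2, fell by 0.45 (adjusted p = 0.0273). No gene of the list was called without saline replicate 4 or 5 or without fucoidan replicate 3. Zfp318 also lost its call without saline replicate 2 (edgeR adjusted p = 0.0637), saline replicate 3 (0.0735) or fucoidan replicate 1 (0.1235). Pou2f2 also lost its call without fucoidan replicate 2 (0.0564). In the blocked fit 1 was called, and Pou2f2 was not (adjusted p = 0.0709).

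For class switching, 21 genes were tested, of which 1 rose and 2 fell (median -0.14), a share close to the 13.8% called over all genes tested. Shld2, of the shieldin complex that protects broken DNA ends, fell by 0.98 (edgeR adjusted p = 0.00508). In the blocked fit 1 gene of the list fell. The transcription factor gene Batf rose by 0.59 (adjusted p = 0.0279), a call lost when any of saline replicates 3 and 4 and fucoidan replicates 1 and 3 was left out. These genes also act outside B cells.

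Among 14 receptors and transporters of immunoglobulin, 5 fell and 1 rose (median -0.38). Of all genes tested, 4.65% were called lower and 9.11% higher. Besides Fcer2a, Fcmr, the IgM receptor, fell by 0.72 (edgeR adjusted p = 0.0160) and Fcrl1, a receptor-like gene of B cells, by 0.54 (adjusted p = 0.00997), and neither was called without fucoidan replicate 3. Fcgr4, an IgG receptor of myeloid cells, rose by 0.90 (adjusted p = 0.00484). Without fucoidan replicate 3 only 1 gene of the list fell, and 3 fell when any of saline replicates 3 and 4 and fucoidan replicates 1 and 2 was left out. The surrogate light chain pairs with the IgM heavy chain in precursor B cells. Of the 4 genes listed for it, Igll1, Vpreb1 and Vpreb2 were not tested. The only one tested was Vpreb3, which is also among the 16 B cell markers and does not stand for the others. It was at 24.8 to 38.6 CPM after saline and 23.5 to 37.2 CPM after fucoidan and was not called (edgeR adjusted p = 0.996).

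Genes whose levels most resembled Ighm, Igha and Jchain were sought among 8683 genes with a mean of at least 10 CPM, leaving out immunoglobulin genes and Jchain, by Pearson correlation of log2 CPM over the 8 libraries, as a description. For Ighm they were Rftn1 (r = 0.982), Cxxc5 (0.979) and Trit1 (0.975). With the group means removed, Kynu (0.991), Cstf1 (0.975) and Mrps33 (0.972) took their place, so that no gene was among the nearest 3 both ways. For Igha, whose r with Jchain is given above, the nearest other genes were Gm5424 (0.913), Zxdc (0.844) and Dag1 (0.843), and with group means removed Gm5424 (0.947), Nup133 (0.902) and Zfp709 (0.896). For Jchain, with Igha likewise set aside, they were Gm5424 (0.898), Zxdc (0.860) and Rhno1 (0.835), and with group means removed Nup133 (0.933), Gm5424 (0.931) and Zfp709 (0.919). Igha and Jchain shared 2 of their 3 nearest other genes over the libraries and all 3 with the group means removed. Because Igha and Jchain correlated closely with each other, this sharing is not a separate result. The points also share the low library fucoidan replicate 1. In a search among 8683 genes over 8 libraries, some high r values arise by chance.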

How the data were processed

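Poly(A) RNA of blood mononuclear cells was sequenced in 8 mice, as paired reads of 150 bases. The authors deposited 1 table of whole-number counts per gene, with gene names, lengths and coordinates. Per the submitters' processing notes, the tools were cutadapt 4.0, Trimmomatic 0.39 and HISAT2 2.2.1, and the genome build was GRCm39 (mm39). Not given in the sources used here are the counting program, the annotation release and the strand setting, so reads of a gene and of an overlapping antisense gene cannot be told apart. Groups follow the titles and characteristics, since the treatment text of all samples speaks of saline. The labels give 1 batch date. The libraries are titled as biological replicates, 5 saline and 3 fucoidan.

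The count test was edgeR 4.0.16 (quasi-likelihood, robust, filterByExpr, TMM) in R 4.3.3, with Benjamini-Hochberg adjustment over 14723 genes and calls at 0.05. Leave-one-out, scaling, filter, DESeq2 1.42.0, limma-voom (limma 3.58.1) and replicate block fits were alternatives. Shares were computed from counts per kilobase of the deposited gene length and compared by exact two-sided permutation of the 8 libraries, checked against scipy 1.17.1. No other per-sample measure was used. The procedure was tested on simulated data with added changes. With edgeR, 22.4% of 1.5-fold and 86.6% of 2-fold changes were recovered, and 7.33% of the calls were false. DESeq2 recovered 46.3% of 1.5-fold changes, with 17.3% of its calls false. For limma-voom these values were 22.4% and 5.52%. A gene that was not called can therefore still have changed by 1.5-fold, and in some cases by 2-fold. Changes were not added to genes of very low level, so recovery for those was not measured. The pairing of libraries by replicate number was checked on expression with group means removed. Same-numbered libraries correlated at 0.177, 0.233 and 0.144, and other pairs at -0.261 to 0.144. The highest of the other pairs matched the lowest same-numbered pair, so these values do not settle whether the numbers pair the libraries. The labels give no pairing. The replicate block was fitted only as an alternative, and the reported edgeR and permutation tests do not use it.

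The 10 genes and all lists were chosen with earlier results of these data known. Genes named are all 10, the other constant genes, up to 4 called genes of the smallest p in each list described (or 2 where none was called), and the 3 genes, immunoglobulin genes and Jchain set aside, most like Ighm, Igha and Jchain. Single values of 2 list genes are not reported here. Total counts of 13061703 to 16334932 per library limit precision for the IgG genes, at 18 to 432 counts, most among the tested heavy chain genes.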

Additional observations from a re-analysis of the deposited data

Results flagged for a closer look

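In 36 groups of 5 saline values, 2 had a lowest library set apart from the other 4, by a gap over the range above the critical value of 0.71, which chance exceeds in about 1 group in 20. Igha was 123 CPM in saline replicate 4, against 173 to 189 CPM in the other saline libraries (gap over range 0.767). The Iglc1 share of light chain counts per kilobase was 4.18% in saline replicate 3, against 5.67 to 6.18% in the others (gap over range 0.746).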

How the results depend on the processing

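Ighd was called lower under every alternative run. The genes called lower, 684 as reported, were 1050 with limma-voom, 439 with the replicate block and 182 to 856 without 1 library, and those called higher 746 to 1368 without 1 library. Of the 10 genes, 5 were called lower with DESeq2 and 1 to 4 without 1 library, the 1 being Ighd without fucoidan replicate 3. Directions near 0 turned without 1 library: Igha ran from -0.48 to 0.40 in log2, Jchain from -0.43 to 0.36 and Iglc1 from -0.19 to 0.0030. Vpreb3 turned to -0.045 with upper-quartile factors, -0.010 with no filter, -0.0032 with at least 10 counts in every library, -0.059 with the replicate block, and ran from -0.19 to 0.15 without 1 library. The cause was not tested. No scaling moved the median log2 fold change over all genes by more than 0.05. The paired fit with the replicate block rests on the 3 same-numbered pairs of libraries. It lost the calls of Ighg3 (adjusted p = 0.0608), Btk (0.105), Mzb1 (0.108) and Pou2f2 (0.0709) and changed no other call of a gene named here. As values with no test, the paired differences were -7.66 percentage points for the IgD share, 6.71 for IgM, 1.73 for Iglc1 and -0.64 for log2 Ighd to Ighm. Calls of Zfp318, Cd79b and the other list genes that leave-one-out removed had adjusted p up to 0.176. With 3 treated mice, share tests without 1 library cannot reach 0.05. Intervals and floors cover counting error only.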
